A study of Homo sapiens with 16 samples.

Results

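The 51 genes described here encode proteins that copy DNA in S phase of the cell cycle, or that prepare, supply and regulate that copying. They were chosen by name, as genes of origin licensing, helicase activation, the sliding clamp and its loaders, DNA polymerases, single-strand binding and fragment joining, nucleotide supply, G1/S regulation, and S-phase chromatin and checkpoint. All 51 were found among the 22445 gene identifiers of the deposited expression table, and all 51 passed the filter on low values (more than 1 normalised count in 4 or more libraries), as did 22331 genes in all.

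In G1 phase the origin recognition complex (ORC), CDC6 and CDT1 load the ring-shaped MCM2 to MCM7 complex onto DNA, which licenses a replication origin. In S phase CDC45, the GINS complex and MCM10 turn that ring into a working helicase, DNA polymerase alpha with primase starts each new strand, and polymerases delta and epsilon extend it while held by the sliding clamp PCNA. Transcription of many of these genes is switched on by E2F factors as cells pass from G1 into S phase, and in dividing leukaemia cells their RNA is a common readout of proliferation.

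RNA was sequenced from Molm14 cells, a human line of acute myeloid leukaemia whose KMT2A rearrangement all 4 groups carry. The cells were kept for 7 days with one of 4 additions, renewed with the medium on day 4, and 4 libraries were made per group. The DMSO group received solvent, iDOT1L received 0.16 uM EPZ5676, an inhibitor of the histone H3 lysine 79 methyltransferase DOT1L, iEZH2 received 0.3 uM GSK126, an inhibitor of the histone H3 lysine 27 methyltransferase EZH2, and Combo received both compounds at those doses. The labels do not say whether the 4 libraries of a group came from separate cultures, so the p-values reflect no more than the variation among these samples, which may be technical.

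Normalised totals were 22.4 to 24.1 M per library, with an estimated 20.7 to 27.2 M reads behind them. Of the myeloid markers, SPI1 averaged 2960 and CD33 758 normalised counts in DMSO, FLT3 9243 and CEBPA 11447, while the T-cell marker CD3D averaged 7.5 and the B-cell marker MS4A1 0.3. Levels below are normalised counts, and a difference is a difference of group means of log2(normalised count + 1) with its standard error (SE). A gene is said to rise or fall where limma gave an adjusted p under 0.05 (Benjamini-Hochberg over 22331 genes). For ASF1A, MPO and ANPEP, iEZH2 replicate 4 stood apart from the other iEZH2 libraries, toward the iDOT1L values. ASF1A, a histone chaperone, had 3716, 3555, 3934 and 1711 normalised counts in iEZH2 replicates 1 to 4 and 1478, 1352, 1496 and 1431 in iDOT1L. The granule enzyme MPO, a myeloid marker, had 872, 941, 913 and 2288 in iEZH2 and 4374, 5597, 5237 and 4914 in iDOT1L. The surface enzyme ANPEP, also a myeloid marker, was far lower than the myeloid markers above. It had 25.9, 15.8, 13.6 and 119.8 in iEZH2 and 78.2, 105, 121 and 105 in iDOT1L. For SAMHD1, an enzyme that breaks down deoxynucleotides, iEZH2 replicate 4 showed no such shift. SAMHD1 had 2465, 2834.5, 2481 and 2842 in iEZH2 replicates 1 to 4 and 5220, 5369, 4514 and 4507 in iDOT1L. What sets this library apart was not tested, and comparisons with iEZH2 are given with and without it, an alternative chosen after these values were seen. In RNA pooled from many cells, fewer cells in S phase and less RNA of a gene per cell cannot be told apart. The labels' extraction text speaks of RNA taken after a sort, and whether these cells were sorted cannot be settled from the labels.

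The lowest group mean of any of the 51 genes was 331 normalised counts, that of CCNE1 in DMSO. Few of the genes passed the test under any treatment in the main fit, which did not pair libraries by replicate number. Against DMSO that fit called no gene in iDOT1L, while 3 rose in iEZH2, and 5 rose and 2 fell in Combo. The share of all tested genes called higher was 3.08% in iDOT1L, 1.3% in iEZH2 and 7.22% in Combo, and the share called lower was 3.17%, 2.05% and 8.8%. These shares include many genes of low level. Of the 12270 genes with a mean of at least 50 normalised counts, 544, 227 and 1152 were called higher and 621, 429 and 1808 lower. An unadjusted limma p under 0.05 was given to 2939, 2611 and 4834 of these 12270. The median difference of the 51 genes was -0.05 in iDOT1L, 0.20 in iEZH2 and 0.06 in Combo, beside 0.01, 0.02 and 0.03 over all tested genes. Over the 12270 genes with a mean of at least 50 normalised counts it was -0.02, -0.01 and -0.03. The iEZH2 count of 3 became 0 without iEZH2 replicate 4, with a median of 0.23. The Combo median of 0.06 became 0.02 without DMSO replicate 1, 0.03 without DMSO replicate 3 and 0.12 without DMSO replicate 2. The 3 comparisons share the DMSO libraries. Pairing libraries by replicate number called 5, 15 and 19 of the 51 against DMSO in iDOT1L, iEZH2 and Combo. Of all 22331 genes that paired fit called 2729, 2180 and 5499.

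**Figure D1:**
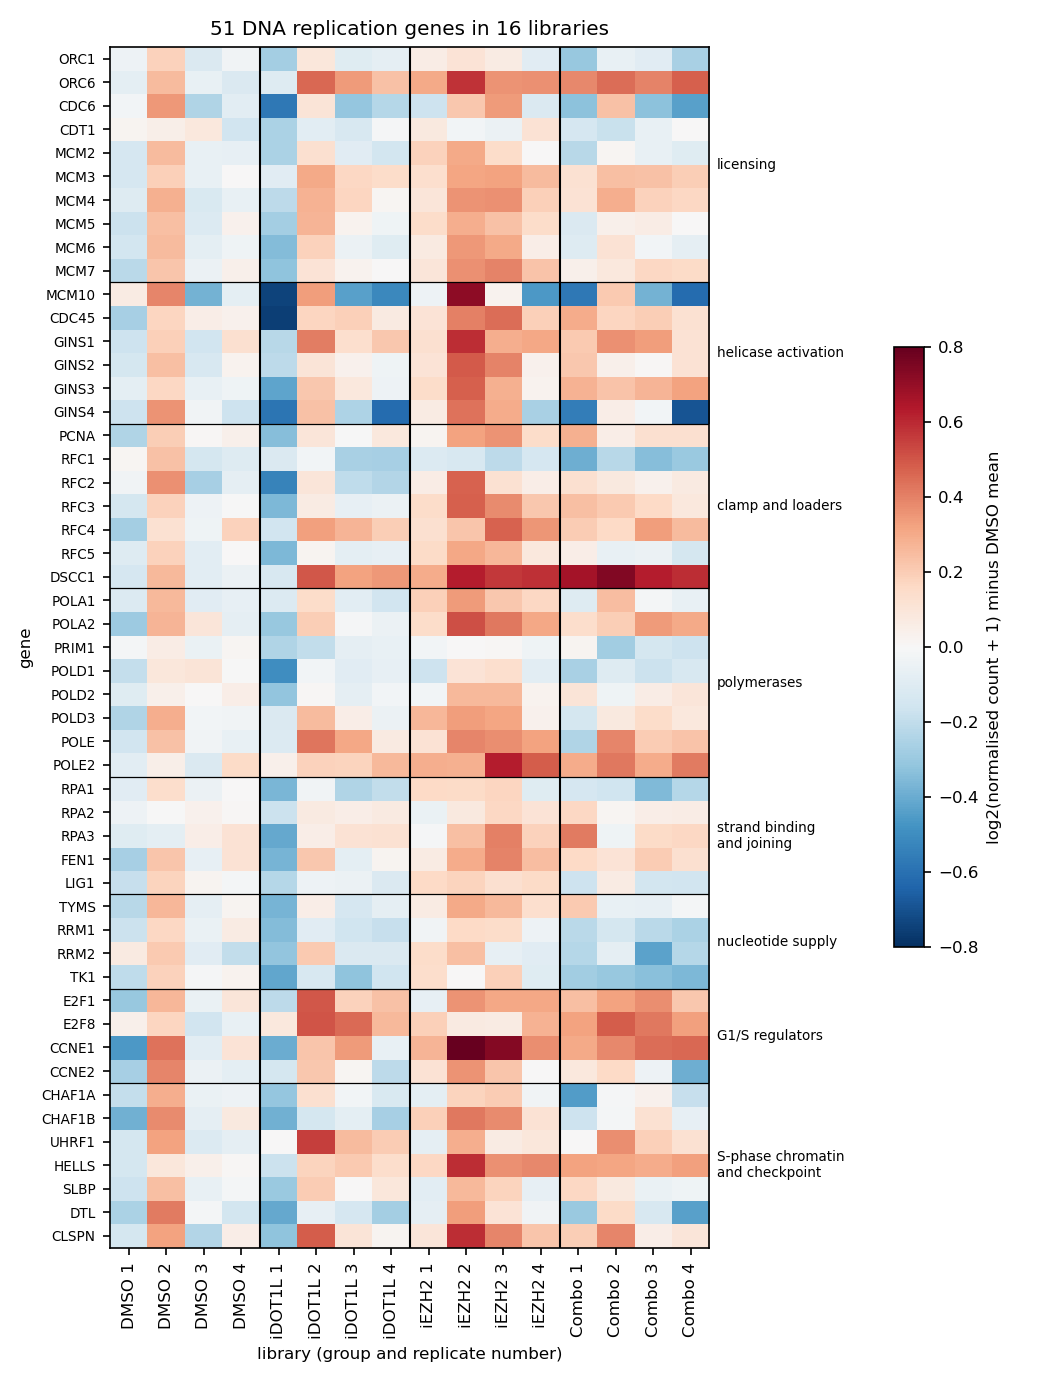
Level of each of the 51 genes (rows, ordered by role) in each of the 16 libraries (columns, by group and replicate number), as log2(normalised count + 1) minus that gene's mean in the 4 DMSO libraries. Replicate 2 of DMSO and of iDOT1L is high and replicate 1 low across most rows, the iEZH2 columns are mostly high, and the medians of the 4 Combo columns lie within 0.03 of each other.

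The levels in DMSO spanned a wide range once divided by transcript length. Per kilobase of the longest protein-coding transcript, PCNA stood at 3892 ± 476 (SD, n = 4) normalised counts and TYMS, which makes thymidylate, at 3187 ± 461, the highest of the 51, and CCNE1, the cyclin that drives entry into S phase, stood lowest at 162 ± 41.4. The subunits of the MCM ring form 1 complex, yet their levels per kilobase ran from 1208 ± 155 for MCM6 to 3019.6 ± 382 for MCM7. MCM7 and MCM4, at 2899.9 ± 407, did not differ beyond their spread. The 4 GINS subunits ran from 242 ± 19.7 for GINS3 to 298 ± 38.2 for GINS2. Of the 5 RFC subunits, which open PCNA and place it on DNA, RFC3 was highest at 948 ± 90.3 and RFC1 lowest at 502 ± 60.7. These orders depend on the length used. With the median transcript length MCM4 led the MCM genes and RFC1 the RFC genes, and GINS2 stood at 1273 normalised counts per kilobase against 268 for GINS1, 284 for GINS3 and 320.1 for GINS4. Over all 51 genes CHAF1A was then the highest, at 4835, and CHAF1B the lowest, at 170.3.

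Some members share sequence with other genes, so that reads may have been divided between them. More than 20% of the 31-base words in the transcripts of MCM2, GINS4, POLA2, PRIM1, TYMS, RRM2, CCNE2 and UHRF1 also occur in another gene, and the levels of these 8 genes are uncertain. For TYMS the share was 43% and its main partner was the overlapping gene ENOSF1. For ORC6 it was 15.8%.

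With iDOT1L alone no gene of the 51 passed the test, and 34 of them had a mean below that of DMSO. Limma gave 5 of the 51 an unadjusted p under 0.05, where 17.8% of all tested genes had one. Differences ran from -0.34 for MCM10, which helps to start the helicase, to 0.33 for E2F8, a repressor of the E2F family. The 95% interval of the difference lay within 0.5 log2 of 0 for 43 of the 51 genes, with a median reach of 0.234 on either side. Only PRIM1, the catalytic subunit of primase, had every iDOT1L library below every DMSO library, where 6.42% of all genes did, and no gene of the 51 had every one above, where 6.05% did.

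E2F8 (ENSG00000129173, chr11:19224063-19241620) came nearest to a call with iDOT1L. Its normalised counts were 1408, 1544, 1229.6 and 1315 in DMSO replicates 1 to 4 and 1452, 1943, 1877 and 1636 in iDOT1L replicates 1 to 4. Replicate 1 of iDOT1L fell among the DMSO values and the other 3 lay above them. The difference was 0.33 ± 0.10 (SE), with an adjusted p of 0.0568 from limma.

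Libraries with the same replicate number deviated together in iDOT1L and DMSO, and a fit that treated them as pairs called 5 of the 51 genes. E2F8 (adjusted p = 0.0211 in limma with the pairing) and UHRF1, which brings DNA methylation to new strands (0.25, adjusted p = 0.00402), rose. GINS4, a helicase subunit (-0.30, adjusted p = 0.0334), RRM1, the large subunit of ribonucleotide reductase (-0.19, adjusted p = 0.0394), and DTL, which marks CDT1 for destruction during S phase (-0.22, adjusted p = 0.0407), fell. In that paired fit 5.69% of all genes were called higher and 6.53% lower. Without pairing, 1 gene was called higher when DMSO replicate 2 was left out and 2 when iDOT1L replicate 1 was left out. Of all 22331 genes 570 and 593 were called higher in those fits. The median difference of the 51, -0.05, became 0.02 and 0.03 in those fits, -0.12 without DMSO replicate 1 or iDOT1L replicate 2, and -0.08 without iDOT1L replicate 3.

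With iEZH2 alone 48 of the 51 genes had a mean above DMSO, and 3 passed the test, DSCC1, POLE2 and HELLS. None fell. The 51 genes vary together by library, so the 48 do not count as separate evidence. Their median in DMSO replicate 2, 0.23, was above those in iEZH2 replicates 1 and 4, 0.11 and 0.12. The median difference ran from 0.15, without DMSO replicate 1, to 0.28 when 1 library was left out. Limma gave 20 of the 51 an unadjusted p under 0.05, where 15.7% of all genes had one. The groups did not overlap for 4 genes, the 3 called and ORC6, all with iEZH2 above DMSO, where 3.67% of all genes did so, and for none was iEZH2 below throughout, where 4.95% were. Without iEZH2 replicate 4 no gene of the 51 passed the test (0.86% of all genes were called higher and 1.48% lower), 19 had an unadjusted p under 0.05, and 5 had every iEZH2 library above every DMSO library, where 5.01% of all genes did. In that fit DSCC1 had a difference of 0.50 (limma adjusted p = 0.0626), POLE2 0.40 (0.0741) and HELLS 0.37 (0.0804).

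DSCC1 (ENSG00000136982, chr8:119833976-119856010) belongs to an alternative clamp loader that works with PCNA and in sister chromatid cohesion. Its counts were 609, 801, 632 and 648 in DMSO and 820.1, 1035, 991 and 1002 in iEZH2, in order of replicate number. Every iEZH2 library lay above the highest DMSO library, replicate 2. The means were 672 ± 87 and 962 ± 96.5 (SD, n = 4), a difference of 0.52 ± 0.12 (SE) with an adjusted p of 0.0219 from limma.

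POLE2 (ENSG00000100479, chr14:49643555-49688422), the second subunit of the leading-strand polymerase epsilon, stood at 325, 355, 318 and 384 in DMSO and 421, 419.6, 532 and 481 in iEZH2. The lowest iEZH2 library was above the highest DMSO library. The difference was 0.42 ± 0.10 (SE, limma adjusted p = 0.0273). HELLS (ENSG00000119969, chr10:94501434-94613905), a chromatin remodeller needed for DNA methylation, had 1961, 2308, 2223 and 2183 in DMSO and 2423, 3259.5, 2785 and 2820.3 in iEZH2. Replicate 1 of iEZH2 was the lowest of its group and still above all DMSO libraries. HELLS rose by 0.37 ± 0.10 (SE, limma adjusted p = 0.0366).

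Among the roles, the median difference with iEZH2 was 0.20 for the 10 licensing genes, 0.25 for the 6 helicase activation genes, 0.21 for the 7 clamp and loader genes and 0.23 for the 8 polymerase genes. It was 0.20 for the 4 G1/S regulators, 0.16 for the 5 genes of single-strand binding and fragment joining, 0.09 for the 7 genes of S-phase chromatin and checkpoint and 0.06 for the 4 nucleotide supply genes. The lowest value of the 51 was -0.14 for RFC1, and the highest was 0.58 for CCNE1. CCNE1 had 235, 437, 305 and 348 in DMSO and 391, 614, 537 and 418 in iEZH2, where DMSO replicate 2 lay above iEZH2 replicates 1 and 4. With this spread its limma adjusted p was 0.101.

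Pairing libraries by replicate number raised the count with iEZH2 from 3 to 15, all higher, while 3.87% of all genes were called higher and 5.89% lower in that fit. The 15 were ORC6, MCM3, MCM4 and MCM7 of licensing, GINS1 of the helicase, RFC3, RFC4 and DSCC1 of the clamp loaders, POLA1, POLA2, POLE and POLE2 of the polymerases, CCNE1, HELLS, and CLSPN, an adaptor of the replication checkpoint. Their limma adjusted p with pairing included 0.000955 for DSCC1, 0.00179 for HELLS, 0.00439 for ORC6 and 0.00666 for CCNE1. Without pairing no gene was called when DMSO replicate 1 or 3 or iEZH2 replicate 3 or 4 was left out, 1 without DMSO replicate 4 or iEZH2 replicate 2, and 5 without DMSO replicate 2. Of all 22331 genes these fits called 192, 166, 187, 192, 179, 232 and 309 higher, in that order. With pairing and without iEZH2 replicate 4, 16 were higher, DSCC1, POLE2 and HELLS among them, where 3% of all genes were called higher and 5% lower. A fit of the DMSO and iEZH2 libraries alone called 1, where 157 of all genes were called higher.

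With both compounds ORC6, DSCC1, POLE2, E2F8 and HELLS rose, and RFC1 and TK1 fell. The other 44 genes did not pass the test without pairing, although 12 of the 51 had an unadjusted p under 0.05, where 28.6% of all genes did. Every Combo library lay above every DMSO library for 6 genes, the 5 that rose and GINS3, and below for 3, RFC1, RPA1 and TK1. Over all genes these shares were 9.62% and 10.3%.

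**Figure D2:**
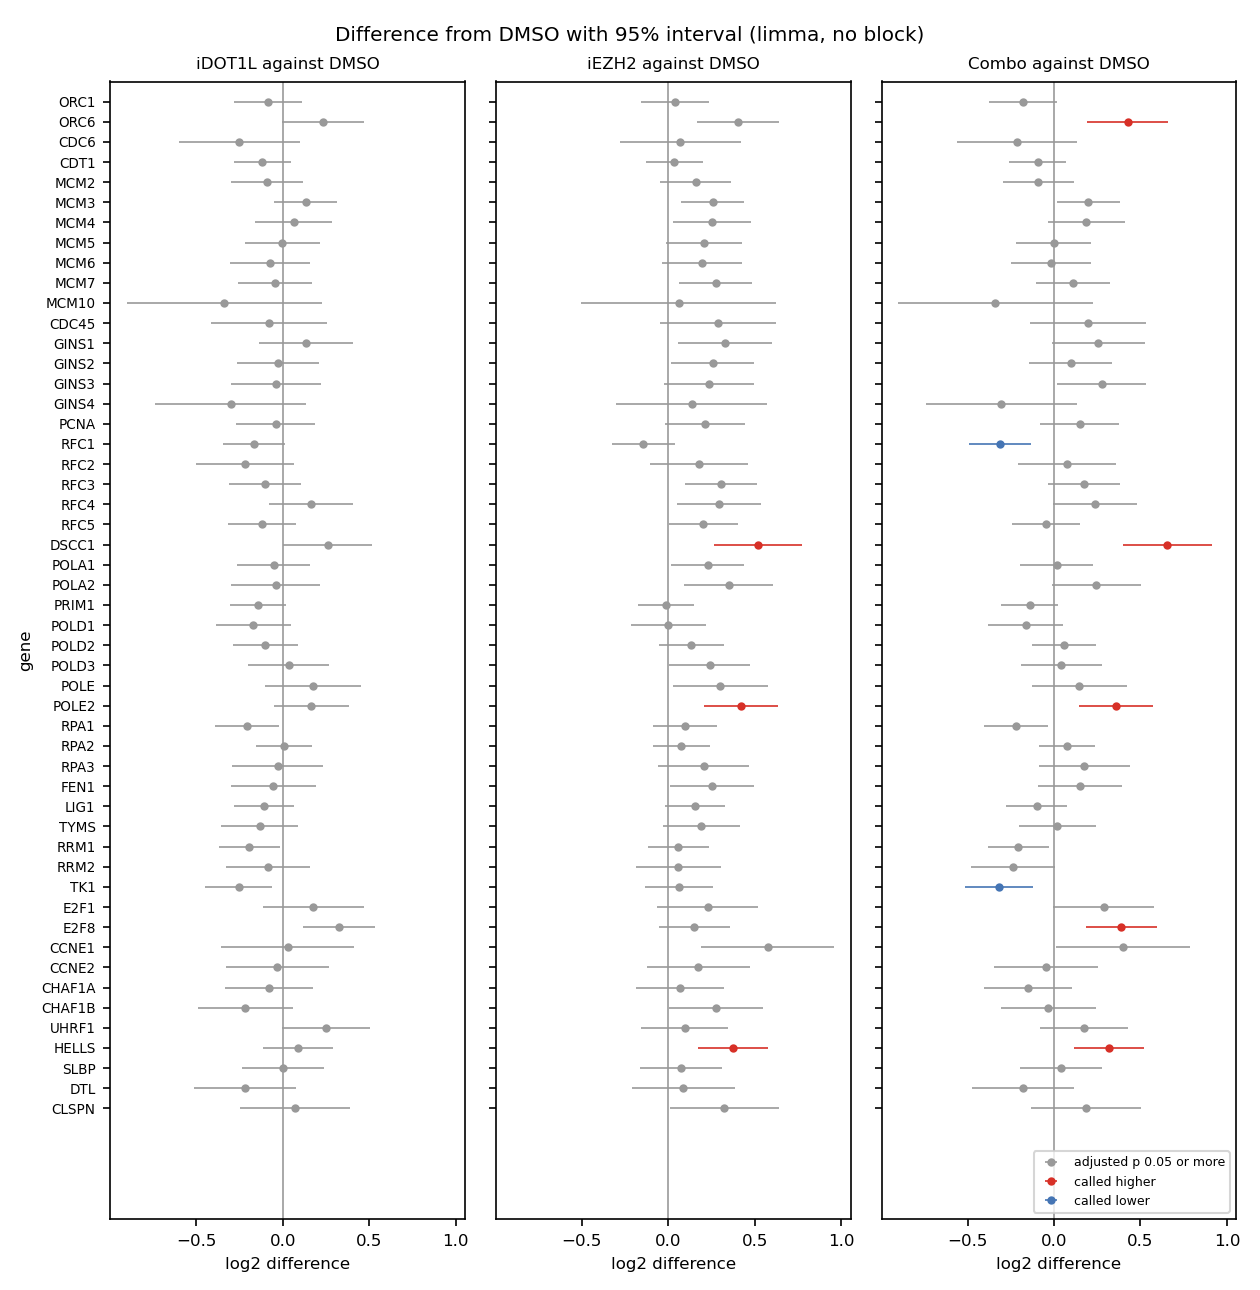
Log2 difference from DMSO (points) with its 95% interval (lines) for the 51 genes in iDOT1L, iEZH2 and Combo, from limma without pairing, with genes called higher in red and called lower in blue. No gene is called with iDOT1L, 3 are called with iEZH2 and 7 with Combo, and most iEZH2 points lie right of 0.

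DSCC1 showed the largest rise of the 51 genes with Combo. The Combo libraries had 1061, 1117, 1033 and 1008 normalised counts, a mean of 1055 ± 47.1 (SD, n = 4) against 672 ± 87 in DMSO. They lay together, above every DMSO library. The difference was 0.66 ± 0.12 (SE, 95% interval 0.40 to 0.91), with a limma adjusted p of 0.000902. With iDOT1L alone DSCC1 had 611, 942, 837 and 852, which overlapped DMSO, and a difference of 0.26 (limma adjusted p = 0.273).

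ORC6 (ENSG00000091651, chr16:46689643-46698394), the smallest subunit of the origin recognition complex, had 718, 905, 726 and 700.3 in DMSO and 989, 1036, 998 and 1055 in Combo. The 4 Combo values sat close together above the DMSO values. It rose by 0.43 ± 0.11 (SE, limma adjusted p = 0.0134). In iEZH2 it had 936, 1133, 974 and 976, again above all DMSO libraries, with a difference of 0.40 and an adjusted p of 0.0571 from limma. ORC1, the other origin recognition subunit among the 51, had a difference of -0.18 in Combo (limma adjusted p = 0.22).

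E2F8 had 1716, 1915, 1835 and 1716 in Combo, all above the highest DMSO value. Its rise was 0.39 ± 0.10 (SE, limma adjusted p = 0.00985). With iEZH2 its difference was 0.15, and the iEZH2 values of 1561, 1441, 1431 and 1659 overlapped those of DMSO. POLE2 had 423, 462, 424 and 459 in Combo, above DMSO throughout, and rose by 0.36 ± 0.10 (SE, limma adjusted p = 0.022). HELLS had 2711, 2699, 2657 and 2713, a narrow band above DMSO, and rose by 0.32 ± 0.10 (SE, limma adjusted p = 0.0306).

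RFC1 (ENSG00000035928, chr4:39287456-39366375), the large subunit of the clamp loader, had 2465, 2869.8, 2215 and 2270.4 in DMSO and 1862, 2095, 1926 and 1989 in Combo. The highest Combo library was below the lowest DMSO library. RFC1 fell, with a difference of -0.31 ± 0.09 (SE, limma adjusted p = 0.0183). Its small partner subunits RFC2, RFC3, RFC4 and RFC5 had differences of 0.08, 0.17, 0.24 and -0.05, none of which passed the test. RFC1 was also below the DMSO mean in iDOT1L, at -0.17, and in iEZH2, at -0.14, without a call.

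TK1 (ENSG00000167900, chr17:78174075-78187233), which salvages thymidine, had 1689.7, 2209, 1932 and 1982 in DMSO and 1601, 1576, 1541 and 1514 in Combo. The Combo values lay together below every DMSO value, and the difference was -0.32 ± 0.09 (SE, limma adjusted p = 0.024). The other nucleotide supply genes did not pass the test without pairing: RRM1 had a difference of -0.21, RRM2, the small subunit of ribonucleotide reductase, -0.24, and TYMS 0.02. In iDOT1L TK1 had 1459.7, 1778, 1557 and 1742, which overlapped DMSO, with a difference of -0.26 (limma adjusted p = 0.128).

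**Figure D3:**
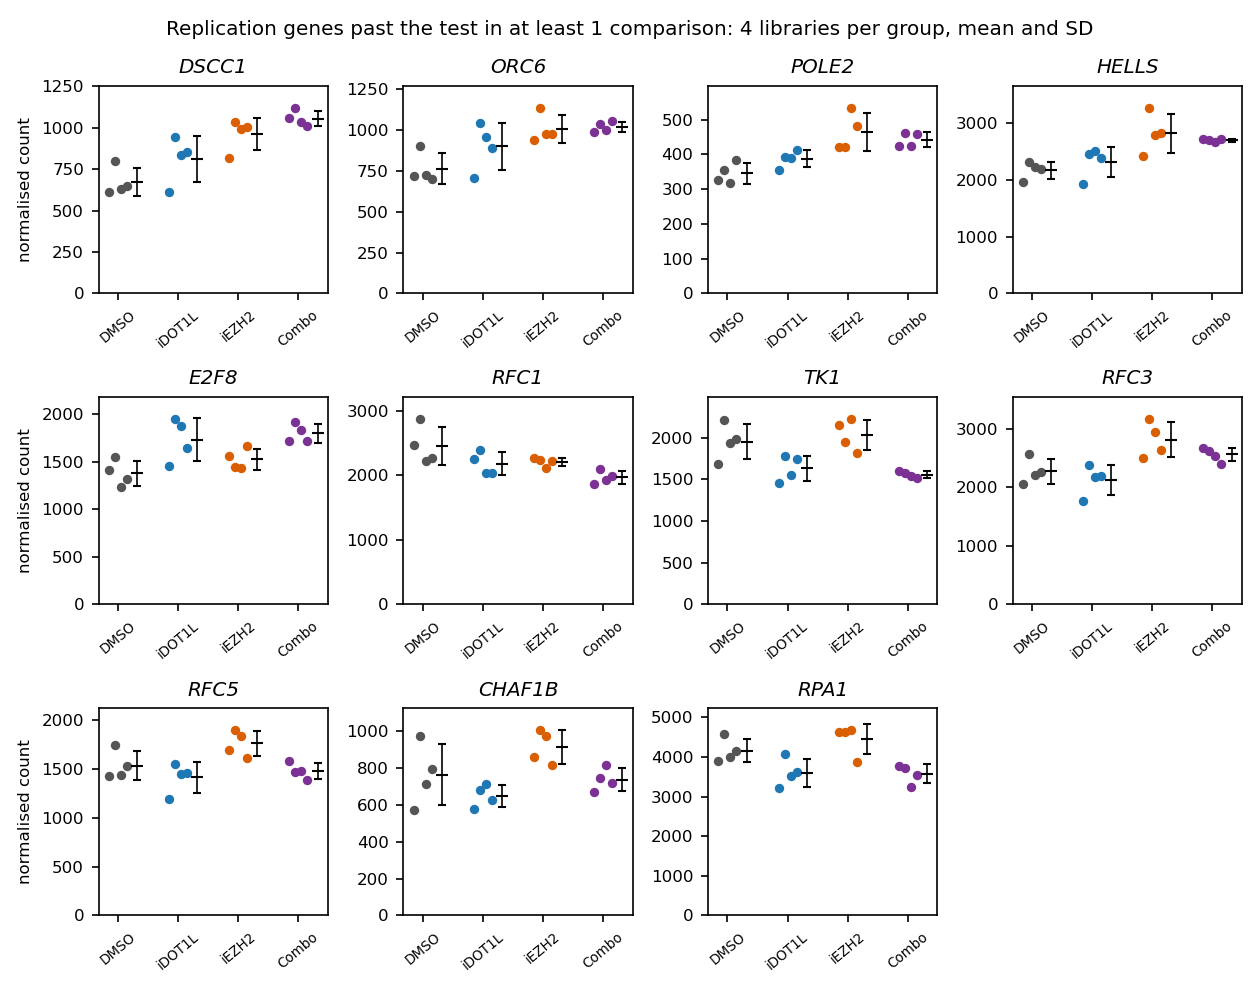
Normalised counts (vertical axes, from 0) of the genes called in at least 1 comparison in each library of the 4 groups, with a point per library and, to the right of each group, its mean and SD. DSCC1, ORC6, POLE2, E2F8 and HELLS have all 4 Combo points above the DMSO points, and RFC1 and TK1 have all 4 below.

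DSCC1, ORC6 and E2F8 kept their calls in Combo against DMSO whichever 1 of the 8 libraries was left out, with adjusted p up to 0.00478, 0.0463 and 0.0421 in limma. The number of genes called higher dropped from 5 to 3 without DMSO replicate 1, DMSO replicate 3 or Combo replicate 4. Of all 22331 genes 1232, 1273 and 1192 were called higher in those fits. HELLS lost its call in 7 of the 8 such fits, all but the one without DMSO replicate 2, with an adjusted p of up to 0.103 from limma. The number called lower dropped from 2 to 1 without DMSO replicate 3, DMSO replicate 4 or Combo replicate 4, and to 0 without DMSO replicate 2 or Combo replicate 3. Over all genes these fits called 1573, 1593, 1514, 1782 and 1484 lower, in that order. With each library centred on the median of its genes, 6 of the 51 rose and 1 fell in Combo, TK1 having an adjusted p of 0.0507 in limma, and over all genes 2088 rose and 1565 fell in place of 1613 and 1966.

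Several genes often used to follow S phase did not pass the test in Combo against DMSO without pairing. With replicate numbers as a block, 3 of the 4 G1/S regulators were called higher, E2F1 and CCNE1 among them. In that fit 3 of the 4 nucleotide supply genes, RRM2 among them, were called lower. Over all 22331 genes it called 2525 higher and 2974 lower. PCNA had 4444, 6017, 5291 and 5404 in DMSO and 6403, 5448, 5755 and 5738 in Combo, which overlapped, a difference of 0.15 with a 95% interval of -0.08 to 0.38. MCM2 had 5257, 6873, 5536 and 5515 and 4935, 5824, 5537 and 5378, a difference of -0.09 (95% interval -0.30 to 0.11). For both, DMSO replicate 1 was the lowest library of the DMSO group and replicate 2 the highest. CDC6, the licensing factor, had 1409.6, 1815, 1209 and 1350.2 and 1140.0, 1681, 1137 and 1056, a difference of -0.21 (95% interval -0.56 to 0.13). E2F1, the activating E2F factor, had 609.6, 907, 725 and 805 and 889, 943, 975 and 877, a difference of 0.29 (95% interval -0.01 to 0.58). Combo replicate 2 was the highest CDC6 library of its group, and the E2F1 values of the 2 groups overlapped through DMSO replicate 2.

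RRM2 had 3610.5, 3979, 3231 and 3004 in DMSO and 2936, 3273, 2551 and 2931 in Combo, and TYMS had 4508, 6324, 5011 and 5345 and 6085, 5054, 5027 and 5203. Both overlapped between the groups. The 95% intervals of their differences were -0.48 to 0.01 and -0.21 to 0.24. CCNE1 had 399, 422, 440.3 and 445 in Combo, a difference of 0.40 ± 0.18 (SE) that did not pass the test without pairing, with a limma adjusted p of 0.159. The smallest differences in Combo were those of MCM5 (4795, 5347, 5401 and 5189 against 4613, 6134, 4811 and 5325 in DMSO), at -0.0032, and of POLA1, TYMS and MCM6, at 0.02, 0.02 and -0.02. Of the 6 ring subunits MCM2 to MCM7 none passed the test against DMSO under any treatment without pairing, and their Combo differences ran from -0.09 for MCM2 to 0.20 for MCM3. Of the 51 intervals in Combo, 35 lay within 0.5 log2 of 0.

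The upstream sequences of the genes called in Combo are shown so that the regulatory letters before genes that rose and genes that fell can be compared. RefSeq promoter windows on GRCh38.p14, from 250 bases before the transcript start to 50 after it, were matched for 42 of the 51 genes, and those of ORC6, POLE2, HELLS, RFC1 and TK1 follow, 5′ to 3′ on the strand of the gene. Capitals mark the E2F-type strings TTTCGCGC and TTTGGCGC, the CCAAT box and the CHR element (TTTGAA) wherever found on either strand. Other forms of an E2F site were not searched for, so a window without capitals may still hold one. The windows are chr16:46689409-46689708 on the plus strand for ORC6, chr14:49688165-49688464 on the minus strand for POLE2, chr10:94545538-94545837 on the plus strand for HELLS, chr4:39366313-39366612 on the minus strand for RFC1 and chr17:78187155-78187454 on the minus strand for TK1. The HELLS window is at the RefSeq start, which lies inside the longer GENCODE gene.
ORC6: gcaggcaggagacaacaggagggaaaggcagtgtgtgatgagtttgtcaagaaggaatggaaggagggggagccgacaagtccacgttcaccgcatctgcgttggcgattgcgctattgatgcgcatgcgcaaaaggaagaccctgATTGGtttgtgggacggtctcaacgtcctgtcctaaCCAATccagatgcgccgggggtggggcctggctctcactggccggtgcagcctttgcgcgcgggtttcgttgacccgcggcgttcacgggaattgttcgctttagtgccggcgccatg
POLE2: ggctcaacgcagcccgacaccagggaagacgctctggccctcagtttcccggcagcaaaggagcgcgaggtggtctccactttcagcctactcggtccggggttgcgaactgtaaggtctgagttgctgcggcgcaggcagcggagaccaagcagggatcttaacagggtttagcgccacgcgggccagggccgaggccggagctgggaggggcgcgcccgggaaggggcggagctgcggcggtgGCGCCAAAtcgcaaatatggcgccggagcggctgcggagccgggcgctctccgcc
HELLS: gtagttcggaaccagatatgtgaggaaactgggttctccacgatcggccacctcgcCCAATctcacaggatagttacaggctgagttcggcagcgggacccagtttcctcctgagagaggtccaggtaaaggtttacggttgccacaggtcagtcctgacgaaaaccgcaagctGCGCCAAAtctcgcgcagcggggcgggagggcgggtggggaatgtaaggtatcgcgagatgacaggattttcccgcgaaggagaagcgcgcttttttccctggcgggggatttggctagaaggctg
RFC1: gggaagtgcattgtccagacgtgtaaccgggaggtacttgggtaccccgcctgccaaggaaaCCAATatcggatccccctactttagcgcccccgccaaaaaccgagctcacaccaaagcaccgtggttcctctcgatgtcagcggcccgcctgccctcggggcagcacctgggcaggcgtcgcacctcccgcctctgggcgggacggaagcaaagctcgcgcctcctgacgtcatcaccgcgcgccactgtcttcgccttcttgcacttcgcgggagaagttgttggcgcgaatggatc
TK1: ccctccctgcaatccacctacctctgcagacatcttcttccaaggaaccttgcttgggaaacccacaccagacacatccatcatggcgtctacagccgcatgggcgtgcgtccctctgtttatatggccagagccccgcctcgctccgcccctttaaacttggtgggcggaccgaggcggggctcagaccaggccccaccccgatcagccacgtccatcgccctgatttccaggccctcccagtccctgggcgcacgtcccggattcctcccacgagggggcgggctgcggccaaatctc

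ORC6 carries the CCAAT box on both strands, RFC1 carries it once, and POLE2 carries TTTGGCGC on the opposite strand (GCGCCAAA). HELLS carries both TTTGGCGC and CCAAT, and none of the 4 strings was found in the TK1 window. Over the 42 windows TTTCGCGC occurred in 5 (11.9%) and TTTGGCGC in 9 (21.4%), against 0.515% and 0.652% of all 35116 windows, and 13 of the 42 (31%) held one or the other, against 1.15%. These 13 were MCM2, MCM3, MCM6, MCM7, CDC6, E2F1, GINS1, POLA1, POLA2, POLE, POLE2, HELLS and DTL. The CCAAT box occurred in 26 of the 42 windows (61.9%, against 34.6% of all), and TTTGAA only in that of RRM1 (2.38%, against 15.2%). A match is a string of letters in a window, and no binding was measured. MCM4, MCM5, GINS4, DSCC1, POLD3, RPA2, RPA3, E2F8 and CCNE2 had no window in the table.

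Between Combo and iDOT1L, which differ by GSK126, no gene of the 51 passed the test in limma without pairing. Of the 51, 6 had an unadjusted p under 0.05, where 16.6% of all genes did. With replicate numbers as a block 4 were called higher and 0 lower, where 843 and 1397 of all 22331 genes were. The evidence that the number marks pairs is weaker for Combo. The median difference between Combo and iDOT1L was 0.07, which became -0.02 without iDOT1L replicate 1, 0.14 without iDOT1L replicate 2 and 0.10 without Combo replicate 4, beside -0.02 over the 12270 genes with a mean of at least 50. GINS3, RFC3, DSCC1, POLE2 and HELLS had every Combo library above every iDOT1L library, where 5.08% of all genes did, and none had every one below, where 5.36% did. Over all genes 1.11% were called higher and 1.48% lower, or 292 higher and 216 lower after median centring in place of 247 and 330.

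Between Combo and iEZH2, which differ by EPZ5676, TK1 was lower in Combo and no other gene of the 51 passed the test without pairing. In that fit 1.72% of all genes were called lower and 2.08% higher. With replicate numbers as a block 12 of the 51 were called lower and 0 higher, where 1170 and 966 of all 22331 genes were. TK1 had 2146, 1953, 2221 and 1821 in iEZH2, all above the Combo values, and the difference was -0.38 ± 0.09 (SE, limma adjusted p = 0.024). That call was lost without iEZH2 replicate 1 or 3 or Combo replicate 3 or 4. Without Combo replicate 2, 2 genes were called lower, where 390 of all 22331 genes were. Without iEZH2 replicate 4, TK1 (-0.43, limma adjusted p = 0.0109) and RPA1 (-0.38, limma adjusted p = 0.0141) were lower, where 2.85% of all genes were called lower and 3.19% higher. In that fit the median difference was -0.16, and 13 genes had every Combo library below every iEZH2 library, where 7.07% of all genes did. The fit of these 2 groups alone called 0, where 224 of all genes were called lower and 287 higher. RPA1, the large subunit of the protein that coats single strands, was next with -0.32 (limma adjusted p = 0.0535). Of the 51 genes 45 had a lower mean in Combo than in iEZH2, with a median difference of -0.15, beside -0.03 over genes with a mean of at least 50. The groups did not overlap for MCM5, RFC1, RFC5, RPA1, LIG1, RRM1 and TK1, with Combo below, where 3.92% of all genes did so, and for E2F8 with Combo above, where 4.56% did. After median centring 543 genes were called higher and 290 lower over all genes in this comparison, in place of 465 and 385.

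Between the 2 single treatments, 49 of the 51 genes had a lower mean in iDOT1L than in iEZH2. RFC3, RFC5, RPA1, TK1 and CHAF1B fell below their iEZH2 level with an adjusted p under 0.05 in limma, where 3.06% of all genes were called lower and 3.88% higher. The median difference was -0.25, or -0.15 without iDOT1L replicate 1, beside -0.01 over genes with a mean of at least 50. Of the 51, 26 had an unadjusted p under 0.05, where 19.3% of all genes did. Among the 12270 genes with a mean of at least 50, 3332 had one. Without iEZH2 replicate 4 the same 5 genes were lower, with limma adjusted p of 0.0165 for RFC3, 0.0319 for RFC5, 0.0139 for RPA1, 0.0244 for TK1 and 0.0205 for CHAF1B. In that fit the median was -0.27, and 3.62% of all genes were called lower and 4.45% higher.

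RFC3 (ENSG00000133119, chr13:33818049-33966558), a small subunit of the clamp loader, had 1773, 2379, 2172 and 2194 in iDOT1L and 2510.4, 3166, 2952 and 2637 in iEZH2. The highest iDOT1L library was below the lowest iEZH2 library. The difference was -0.41 ± 0.10 (SE, limma adjusted p = 0.0154). The DMSO libraries, 2059.9, 2576, 2207 and 2269, overlapped both groups, with a difference of -0.10 for iDOT1L and 0.30 for iEZH2 against them, neither past the threshold. RFC5 (ENSG00000111445, chr12:118013588-118033130) had 1190.0, 1556, 1448 and 1464 in iDOT1L and 1701, 1899, 1839 and 1619 in iEZH2, without overlap, and a difference of -0.32 ± 0.09 (SE, limma adjusted p = 0.0442).

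CHAF1B (ENSG00000159259, chr21:36385378-36419015), a subunit of the factor that places histones on new DNA, had 574, 680.4, 709 and 624 in iDOT1L and 857, 1003, 973 and 812 in iEZH2. All iEZH2 libraries were above all iDOT1L libraries, while the DMSO libraries, 573, 972, 714 and 792, spanned both. The difference was -0.49 ± 0.13 (SE, limma adjusted p = 0.0254). TK1 differed by -0.32 ± 0.09 (SE, limma adjusted p = 0.0459). RPA1 (ENSG00000132383, chr17:1829702-1900082) had 3216, 4069.7, 3512 and 3625 and 4629, 4620.2, 4674 and 3878, which overlapped because iDOT1L replicate 2 exceeded iEZH2 replicate 4, and a difference of -0.30 ± 0.09 (SE, limma adjusted p = 0.0435). The groups did not overlap for 10 of the 51 genes, all with iDOT1L below (RFC3, RFC5, POLA1, PRIM1, POLE2, LIG1, TYMS, RRM1, TK1 and CHAF1B), where 5.04% of all genes did so and 6.25% had iDOT1L above. Leaving out iEZH2 replicate 4 gave 14, where 7.94% of all genes had iDOT1L below.

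In iDOT1L against iEZH2, too, same-numbered libraries deviated together, and the paired fit called 22 of the 51 lower and none higher, where 6.91% of all genes were called lower and 7.35% higher. The 22 came from every role: MCM2, MCM5, MCM6 and MCM7; MCM10 and GINS4; RFC2, RFC3 and RFC5; POLA1, POLA2 and POLD2; RPA1, FEN1 and LIG1; TYMS, RRM1 and TK1; and CCNE1, CHAF1B, HELLS and DTL. CCNE1 had the largest difference of the 51, -0.55 ± 0.18 (SE), with a limma adjusted p of 0.0858 without pairing and 0.0064 with it. Without pairing, the count of 5 became 0 without iDOT1L replicate 1, iEZH2 replicate 2 or iEZH2 replicate 3, 1 without iDOT1L replicate 4, 2 without iDOT1L replicate 3 and 10 without iDOT1L replicate 2. Over all genes these fits called 483, 457, 409, 514, 468 and 676 lower, in that order. The paired fit without iEZH2 replicate 4 called 25 lower, where 7.25% of all genes were called lower and 7.53% higher. The count of 5 was 1 in a fit of these 2 groups alone, where 408 of all 22331 genes were called lower. It was 9 among genes with a mean of at least 50, where 750 of 12270 were called lower.

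The interaction, Combo minus iDOT1L minus iEZH2 plus DMSO, asks whether the effect of both compounds together departs from the sum of the single effects. No gene of the 51 passed the test in limma, none had an unadjusted p under 0.05, where 3.8% of all tested genes did, and no gene of the whole table was called. Leaving out iEZH2 replicate 4 again gave 0 of the 51, none with an unadjusted p under 0.05, and 1 gene of the whole table was called. The 51 values had a median of -0.12 and ran from -0.33 to 0.12, and 45 were below 0; the median over genes with a mean of at least 50 was -0.01. The median of the 51 became -0.05 without iDOT1L replicate 2, -0.08 without DMSO replicate 1, and -0.19 without iDOT1L replicate 1 or DMSO replicate 2. The 95% interval reached a median of 0.331 on either side, and for 33 of the 51 it lay within 0.5 log2 of 0.

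The 51 genes varied together within groups. For each library the median over the 51 genes of the difference from the DMSO mean was taken. In DMSO it was -0.14 in replicate 1 and 0.23 in replicate 2, with replicates 3 and 4 at -0.06 and -0.0034. In iDOT1L it was -0.30, 0.17, -0.01 and -0.04 in replicates 1 to 4. Replicate 1 was lowest and replicate 2 highest in both groups. In iEZH2 the values were 0.11, 0.32, 0.29 and 0.12, and in Combo 0.08, 0.08, 0.05 and 0.07. The spread from lowest to highest library was thus 0.375 in DMSO, 0.472 in iDOT1L, 0.209 in iEZH2 and 0.03 in Combo. Medians of single roles spread more in Combo, from 0.111 for helicase activation to 0.208 for licensing. In Combo replicate 1 the median was 0.20 for clamp and loader genes and -0.11 for licensing genes. Over the 12270 genes with a mean of at least 50 the library median spread over 0.0237 to 0.0495 in the 4 groups. Normalisation between samples holds that median near 0, so it does not measure how unusual the spread of the 51 is.

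**Figure D4:**
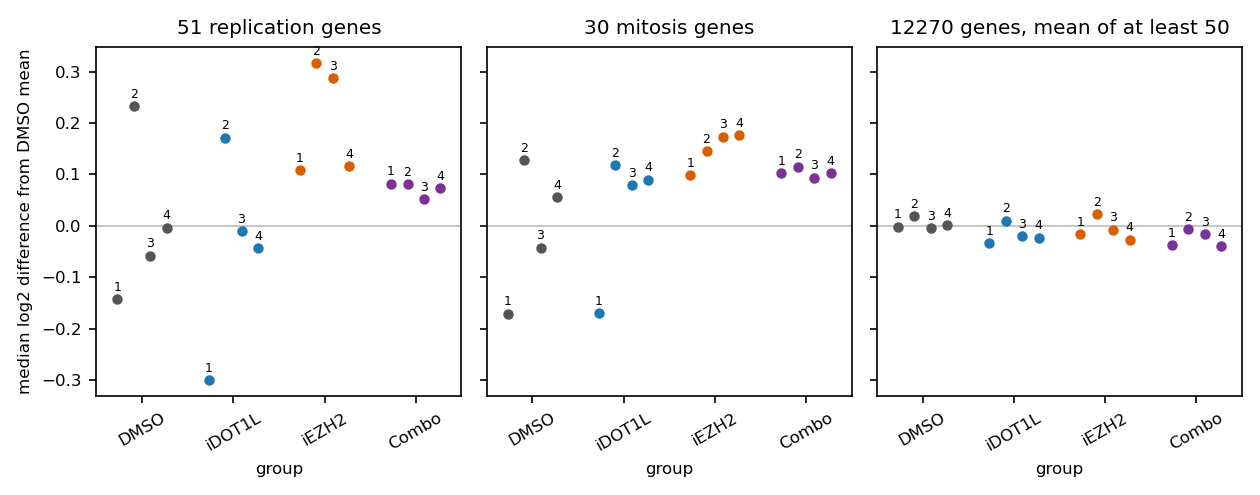
Median over genes of the log2 difference from the DMSO mean in each library (points, numbered by replicate) for the 51 replication genes, 30 mitosis genes and all 12270 genes with a mean of at least 50. The replication genes range over 0.375 in DMSO and 0.472 in iDOT1L but over 0.03 in Combo. The medians of all genes stay near 0, where normalisation between samples holds them.

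DMSO replicate 2 was the highest DMSO library for 44 of the 51 genes, where it was so for 34.2% of all genes with a mean of at least 50, and DMSO replicate 1 was the lowest for 38 (29.4% of all). iDOT1L replicate 2 was the highest of its group for 43 (31.9%) and iDOT1L replicate 1 the lowest for 47 (36%). In iEZH2 replicate 2 was highest for 31 (31.9%) and replicate 1 lowest for 27 (29.3%). In Combo the pattern was weaker, with replicate 2 highest for 23 (33%) and replicate 1 lowest for 21 (30%). The median SD of a gene between libraries (log2) was 0.177 in DMSO, 0.193 in iDOT1L, 0.148 in iEZH2 and 0.0912 in Combo for the 51 genes. Over all genes with a mean of at least 50 it was 0.149, 0.162, 0.181 and 0.161. The labels do not say what a replicate number stands for, and what sets these libraries apart was not tested.

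For 30 mitosis genes the same library median ranged over 0.299 in DMSO, 0.287 in iDOT1L, 0.0787 in iEZH2 and 0.0217 in Combo. Against DMSO 0 of the 30 were called with iDOT1L or iEZH2 in limma, where 6 and 7 had an unadjusted p under 0.05, beside 17.8% and 15.7% of all genes. With Combo 3 rose, where 7.22% of all genes did: CENPF, a kinetochore protein (0.67, adjusted p = 0.0278), CDC20, an activator of the anaphase-promoting complex (0.38, adjusted p = 0.0324), and MKI67, the proliferation marker Ki-67 (0.28, adjusted p = 0.043). In iDOT1L against iEZH2 3 were lower, where 3.06% of all genes were: CCNB1 (-0.44, adjusted p = 0.00642), CDK1 (-0.43, adjusted p = 0.00867) and BIRC5 (-0.30, adjusted p = 0.0369). Their median differences against DMSO were 0.03 with iDOT1L, 0.16 with iEZH2 and 0.10 with Combo. With pairing by replicate number 2 rose and 1 fell with iDOT1L, 6 rose with iEZH2, and 8 were lower in iDOT1L than in iEZH2, where the shares of all genes were 5.69% and 6.53%, 3.87%, and 6.91%. Without iEZH2 replicate 4 the unpaired counts were 0 with iEZH2 and 4 lower in iDOT1L than in iEZH2, CCNB1, CDK1 and BIRC5 among them, and the paired counts were 3 and 9. In those fits 0.86% of all genes were called higher with iEZH2 unpaired and 3% paired. The shares lower in iDOT1L than in iEZH2 were 3.62% and 7.25%.

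Of 58 further replication genes, a list without the 51, limma called 3 with iDOT1L (1 higher, 2 lower), 0 with iEZH2, where 16 had an unadjusted p under 0.05, and 9 with Combo (4 higher, 5 lower) against DMSO. Over all genes 3.08% were called higher and 3.17% lower with iDOT1L and 7.22% and 8.8% with Combo, and 15.7% had such an unadjusted p with iEZH2. SAMHD1, which breaks down deoxynucleotides, rose with iDOT1L from 3011 ± 244 to 4903 ± 457 normalised counts (SD, n = 4), a difference of 0.70 (limma adjusted p = 0.000183). ASF1A fell with iDOT1L from 3366 ± 163 to 1439 ± 64.3, a difference of -1.23 (limma adjusted p = 0.000304), and with Combo to 1389.6 ± 110.0 (-1.28, limma adjusted p = 7.17e-05). ORC4, an origin recognition subunit, had a difference of -0.50 with iDOT1L and -0.71 with Combo (limma adjusted p = 0.0286 and 0.00098). With iDOT1L these 3 differences were larger in size than that of any of the 51 genes.

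CDC7, the kinase that starts origin firing, rose with Combo by 0.42 (limma adjusted p = 0.0163). In iDOT1L against iEZH2 ASF1B, the partner of ASF1A, and GMNN, the inhibitor of licensing, were lower by limma, with differences of -0.43 and -0.45 (adjusted p = 0.0133 and 0.0186). The median differences of the 58 genes against DMSO were -0.04 with iDOT1L, 0.15 with iEZH2 and 0.03 with Combo. Pairing by replicate number called 13 of the 58 with iEZH2 (12 higher, 1 lower) and 7 with iDOT1L (3 higher, 4 lower), and raised the count in iDOT1L against iEZH2 from 7 (1 higher, 6 lower) to 17 (2 higher, 15 lower). The shares of all genes called higher and lower with pairing were 3.87% and 5.89% with iEZH2, 5.69% and 6.53% with iDOT1L, and 7.35% and 6.91% in iDOT1L against iEZH2. Without iEZH2 replicate 4 the unpaired counts were 0 with iEZH2 and 10 in iDOT1L against iEZH2 (1 higher, 9 lower, ASF1B and GMNN among them), and the paired counts were 12 and 21. The shares of all genes called higher and lower were then 0.86% and 1.48% with iEZH2 unpaired and 3% and 5% paired. In iDOT1L against iEZH2 they were 4.45% and 3.62% unpaired and 7.53% and 7.25% paired.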

How the data were processed

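The deposited table held 1 log2 value per gene and library for the 16 libraries, which the authors had normalised between samples and variance-stabilised. The submitters' processing notes name kallisto, DESeq2 and hg38, with their versions and the transcript annotation not given in the sources used here. Every library had the same lowest value, 6.28106, taken as a count of 0, and the transformation was inverted to normalised counts. Of 22445 identifiers 20784 matched GENCODE v29, the source of symbols and GRCh38 positions. The labels' extraction text speaks of RNA taken after a sort, which conflicts with the 7-day treatment text, which was followed.

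Limma 3.58.1 (R 4.3.3; trend and robust) was fitted to log2(normalised count + 1) over all 16 libraries with 4 group means (12 residual degrees of freedom), no block and Benjamini-Hochberg adjustment per comparison. It was run on simulated counts drawn independently, with no replicate effect. That run does not show how the fit performs where same-numbered libraries vary together. For 7 comparisons, alternatives were another pseudocount, the deposited log2 values, other filters, median centring, the 2 groups alone, the replicate number as a block, and leaving out each library. Residuals of same-numbered libraries correlated over 12270 genes at 0.109 to 0.5 for iDOT1L and DMSO, 0.198 to 0.581 for iEZH2 and DMSO, and 0.113 to 0.639 for iDOT1L and iEZH2, and the pairing comes from these numbers in the labels.

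The 51 members and the other lists were chosen with earlier results of these data known. All members could be named. Those called in any comparison, the 4 largest and 4 smallest in Combo and E2F1, PCNA, MCM2, CDC6, RRM2, TYMS and CCNE1 are given with values, as are up to 6 genes of each other list with the lowest adjusted p. Raw reads were not analysed here.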

Additional observations from a re-analysis of the deposited data

Results flagged for a closer look

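Of 204 sets of 4 libraries (51 genes in 4 groups), 15 (7.35%) held a library whose gap to its nearest neighbour exceeded the 95% critical value of Dixon's test, which chance alone passes in about 1 of 20 sets. Of these 15, 5 were in DMSO replicate 2 and 4 in iDOT1L replicate 1, and the genes share those libraries. DMSO replicate 2 stood above the other DMSO libraries for ORC6 (905 normalised counts), MCM4 (14665), GINS3 (616), POLA1 (1833) and UHRF1 (8308). iDOT1L replicate 1 stood below the rest of its group for CDC45 (652), POLD1 (2571), RPA2 (1504) and RPA3 (482). In iEZH2 RFC2 was high in replicate 2 (1397), RPA1 low in replicate 4 (3878) and E2F1 low in replicate 1 (719.6). In Combo replicate 2 was high for CDC6 (1681) and LIG1 (2985), and replicate 1 was high for TYMS (6085). What sets these libraries apart was not tested.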

How the results depend on the processing

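The counts of called genes below are over the 51 members, by limma. Another pseudocount, the deposited log2 values and no filter kept each count within 1.5 times. Taking replicate numbers as a block (pairing) gave 2 higher and 3 lower for iDOT1L against DMSO, 15 higher for iEZH2 against DMSO, 12 higher and 7 lower for Combo against DMSO, 4 higher for Combo against iDOT1L, 12 lower for Combo against iEZH2 and 22 lower for iDOT1L against iEZH2. Over all 22331 genes the block called 2525 higher and 2974 lower for Combo against DMSO, 843 higher and 1397 lower for Combo against iDOT1L, and 966 higher and 1170 lower for Combo against iEZH2. The block without iEZH2 replicate 4, chosen after seeing the data, gave 16 higher for iEZH2 against DMSO, 25 lower for iDOT1L against iEZH2, and 1 higher and 15 lower for Combo against iEZH2, where 1167 and 1383 of all genes were called. Same-numbered libraries did not all correlate above 0.1 in the Combo pairs. The correlations there ran from 0.0515 to 0.441 with DMSO, 0.0362 to 0.394 with iDOT1L and 0.0528 to 0.481 with iEZH2. The evidence that the number marks pairs is thus weaker for Combo. Testing only genes with a mean of at least 50 gave 1 higher for iDOT1L against DMSO, 2 lower for Combo against iEZH2 and 9 lower for iDOT1L against iEZH2. Of all 12270 such genes 649, 447 and 750 were called in those directions. Median centring gave 1 higher for iDOT1L against DMSO and 1 lower for Combo against DMSO, where 748 and 1565 of all genes were called. Fits of the 2 groups alone gave 1 higher for iEZH2 against DMSO, 0 lower for Combo against iEZH2 and 1 lower for iDOT1L against iEZH2. Of all 22331 genes 157, 224 and 408 were called in those directions. Leaving out 1 library gave 0 to 2 higher for iDOT1L against DMSO, 0 to 5 higher for iEZH2 against DMSO, 3 to 5 higher and 0 to 2 lower for Combo against DMSO, 0 to 2 lower for Combo against iEZH2 and 0 to 10 lower for iDOT1L against iEZH2. Where a count moved, the cause was not tested. No named gene changed sign past the threshold, and the number of libraries, 4 per group, limits the precision.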
